A study of Mus musculus with 24 samples.

Results

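The 10 genes described here are *Pparg*, which encodes the nuclear receptor PPARγ, its relatives and partners *Ppard*, *Rxra* and *Ppargc1b*, and 6 genes of fatty acid handling, *Cd36*, *Fabp4*, *Fabp5*, *Plin2*, *Angptl4* and *Lpl*. They were chosen by name, as a list of symbols that was matched to the Ensembl identifiers of the gene count table. Each symbol matched 1 identifier, so that 10 of the 56884 genes in the table are described, and all 10 were among the 13679 genes with enough counts to be tested.

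Transcripts were sequenced in bone marrow–derived macrophages (BMDM) from 4 wild-type female C57BL/6J mice aged 9 weeks, which carry the numbers 1, 2, 4 and 5. Bone marrow was grown into macrophages with M-CSF, and the cells of each mouse were split over 6 conditions, giving 24 libraries. Naive macrophages received neither IL-4 nor IL-13 for 24 hours, and IL-4/IL-13–treated macrophages received IL-4 and IL-13 for the same time, each at 20 ng/ml. The other 4 groups all received these cytokines together with an inhibitor that was already present for 1 hour of pretreatment. These were tunicamycin at 5 µg/ml, which blocks N-linked glycosylation in the endoplasmic reticulum, Sal003 at 10 µM, which inhibits dephosphorylation of the translation factor eIF2α, and oligomycin at 1 µM, which inhibits the mitochondrial ATP synthase. Oligomycin was used in 2 groups, and in 1 of them ISRIB, which counteracts the integrated stress response (ISR), was present at 1 µM. The records conflict on which group that was. Sample titles and treatment entries give ISRIB to the libraries named Oligo, whereas the library names and the replicate entries of the samples give it to those named Oli_ISR. The groups are therefore called Oligo-named and Oli_ISR-named, and the choice between these readings was not made from any measured value. The cells were a bulk culture, so that fewer cells expressing a gene and less RNA per cell cannot be told apart.

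PPARγ and PPARδ are ligand-activated receptors that bind DNA together with RXRα and are activated by fatty acids and their derivatives. PGC-1β, the product of *Ppargc1b*, is a coactivator of such receptors and of genes of mitochondrial oxidative metabolism. Lipoprotein lipase releases fatty acids from triglyceride outside the cell, CD36 takes them up, fatty acid–binding proteins carry them in the cytosol, and perilipin 2 coats the droplets in which they are stored. In macrophages, IL-4 signalling through STAT6 is known to act on PPARγ and PGC-1β, and the program is associated with fatty acid oxidation.

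The libraries held between 16238727 and 26725278 reads on genes (median 18999998). Levels are given as CPM, the reads of a gene relative to a fixed total per library, on library sizes normalized with TMM, and differences as log2 fold changes of edgeR's quasi-likelihood test with their standard error (SE), in which a gene passed at a Benjamini-Hochberg adjusted *P* under 0.05. Macrophage markers were present in every library, with 7 genes summing to between 5350 and 11700 CPM. This sum hides opposite moves of single markers. With tunicamycin against IL-4/IL-13 the mean was higher for *Adgre1* (6680 against 977 CPM), *Fcgr1* (230 against 36.9 CPM) and *Spi1* (490 against 423 CPM). It was lower for *Csf1r* (821 against 3730 CPM), *Cd68* (481 against 1230 CPM), *Mertk* (19 against 66 CPM) and *Itgam* (97.2 against 104 CPM). The IL-4/IL-13 means were themselves under those of naive macrophages for *Adgre1* (977 against 3490 CPM), *Fcgr1* (36.9 against 497 CPM), *Mertk* (66 against 138 CPM) and *Itgam* (104 against 190 CPM). *Csf1r* (3730 against 4580 CPM) and *Spi1* (423 against 522 CPM) were also lower there, and *Cd68* was slightly higher (1230 against 1200 CPM). Of the 7 adipocyte markers checked, 5 averaged under 1 CPM in every group, with *Adipoq* at no more than 1.42 CPM in any library, and *Adipor2*, which many cells express, made up nearly the whole of the sum of 96.5 to 164 CPM. The cytokine-response markers *Arg1*, *Retnla*, *Chil3* and *Irf4* together reached 11000 to 12600 CPM with IL-4/IL-13, against 22.5 to 26.6 CPM in naive macrophages and 2.88 to 4.54 CPM with tunicamycin. Their sum was 1640 to 3120 CPM with Sal003, 1230 to 1760 CPM in Oligo-named and 1920 to 3620 CPM in Oli_ISR-named libraries. The 3 ISR markers *Atf4*, *Trib3* and *Chac1* summed to 106 to 126 CPM in naive, 128 to 147 CPM with IL-4/IL-13, 1900 to 2000 CPM with tunicamycin and 202 to 286 CPM with Sal003, and to 1260 to 1280 and 619 to 671 CPM in Oligo-named and Oli_ISR-named libraries. The 7 neutrophil and progenitor markers, of which 1 stayed under 1 CPM on average, summed to 40.6 to 76.7 CPM in naive, 24.1 to 44.4 CPM with IL-4/IL-13, 0.103 to 0.286 CPM with tunicamycin, to 5.09 to 8.44 CPM with Sal003, and to 2.73 to 4.71 and 18.7 to 24.7 CPM in Oligo-named and Oli_ISR-named libraries. Summed over all libraries, 4 stromal markers ranged from 3.21 to 127 CPM, 4 dendritic cell markers from 0.964 to 8.07 CPM, 5 T and B cell markers from 0 to 1.23 CPM, and 3 endothelial markers, of which *Emcn* was at 0 throughout, from 0.555 to 17.5 CPM. The part of these other cells in the differences described here was not tested.

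With IL-4/IL-13, *Ppargc1b* (11.5-fold), *Cd36* (3.41-fold) and *Pparg* (2.59-fold) rose the most among the 10 genes, *Fabp4* and *Lpl* rose by less, and *Ppard*, *Rxra*, *Fabp5*, *Plin2* and *Angptl4* fell. Adding tunicamycin lowered 9 of the 10, by up to 25.4-fold for *Fabp4* and 25.2-fold for *Ppargc1b*, and raised *Fabp5* alone among them. With Sal003 and in both oligomycin groups, *Fabp5*, *Plin2* and *Fabp4* were above the IL-4/IL-13 level while *Ppargc1b* was below it. The plot of log2 fold changes shows these differences side by side, in which the 4 inhibitor comparisons share the same 4 IL-4/IL-13 libraries and are therefore not independent of each other.

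In numbers, 5 of the 10 genes were higher and 5 lower with IL-4/IL-13 than in naive macrophages, beside 30.1% of all tested genes that were higher and 30.4% that were lower. A change of at least 2.5-fold was found for 3 of the 10, beside 11.5% of all tested genes in either direction. Tunicamycin against IL-4/IL-13 gave 1 gene higher and 9 lower, beside 38.7% and 37.6% of all tested genes, and 6 of the 10 passed at 2.5-fold or more, beside 22.6%. Sal003 gave 6 higher and 4 lower, beside 25.9% and 24.6%, with 2 of the 10 at 2.5-fold or more, beside 7.71%. The Oligo-named group gave 3 higher, 6 lower and 1 that did not pass, beside 34.0% higher and 32.2% lower, with 3 at 2.5-fold or more, beside 12.7%. The Oli_ISR-named group gave 3 higher, 2 lower and 5 that did not pass, beside 27.9% higher and 26.4% lower, with 2 at 2.5-fold or more, beside 7.96%. Between the oligomycin groups, 2 of the 10 were higher in Oligo-named libraries and 7 lower, beside 19.9% and 21.3%, and 1 of the 10 differed by at least 2.5-fold, beside 2.62%. The median log2 fold change over the 10 genes was 0.18 with IL-4/IL-13, -1.49 with tunicamycin, 0.28 with Sal003, -0.31 in Oligo-named and 0.07 in Oli_ISR-named libraries, where that over all tested genes lay between -0.02 and 0.01. The 10 genes share libraries and were picked by name with earlier results known, so that these shares are descriptions of the 10 and not a test of them as a group.

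**Figure D1:**
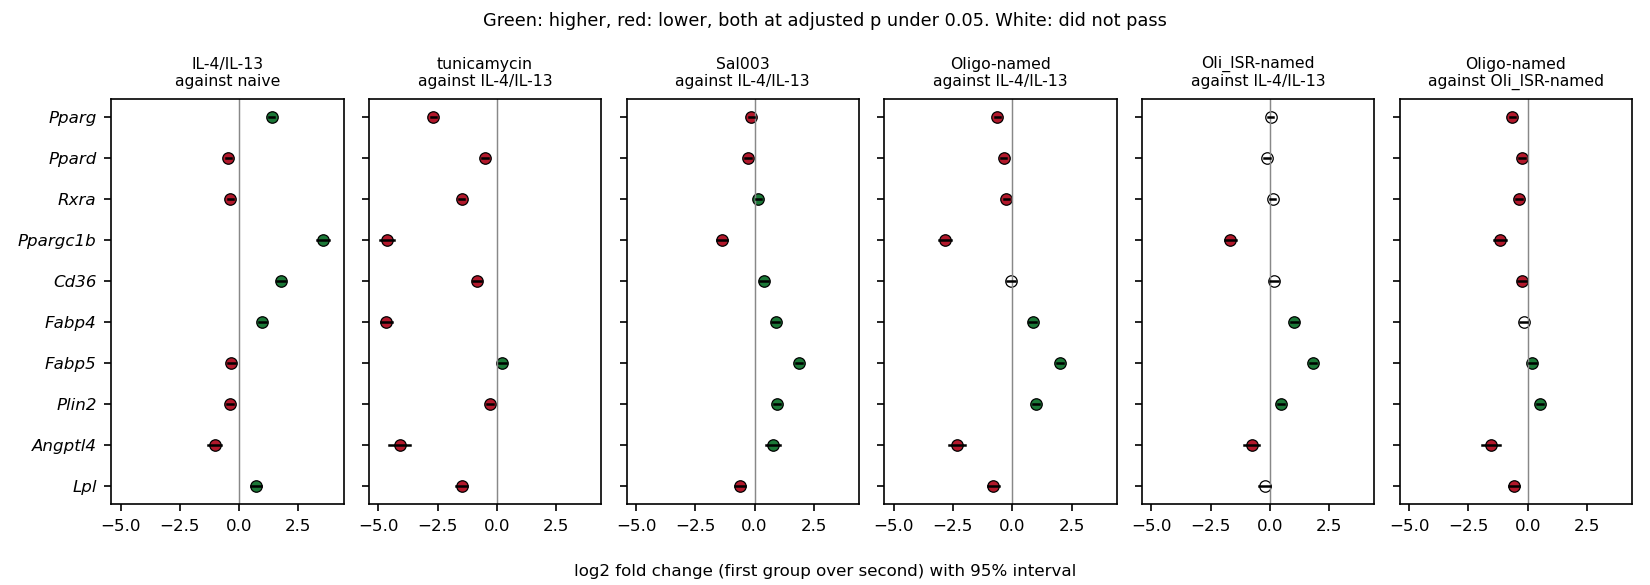
Log2 fold changes of the 10 genes in 6 comparisons, with the first group named in each panel title over the second and bars for the 95% interval, which are often shorter than the points. Tunicamycin gave 9 of 10 points left of 0, and *Fabp5*, *Fabp4* and *Plin2* lay right of 0 with Sal003, in Oligo-named and in Oli_ISR-named libraries.

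**Figure D2:**
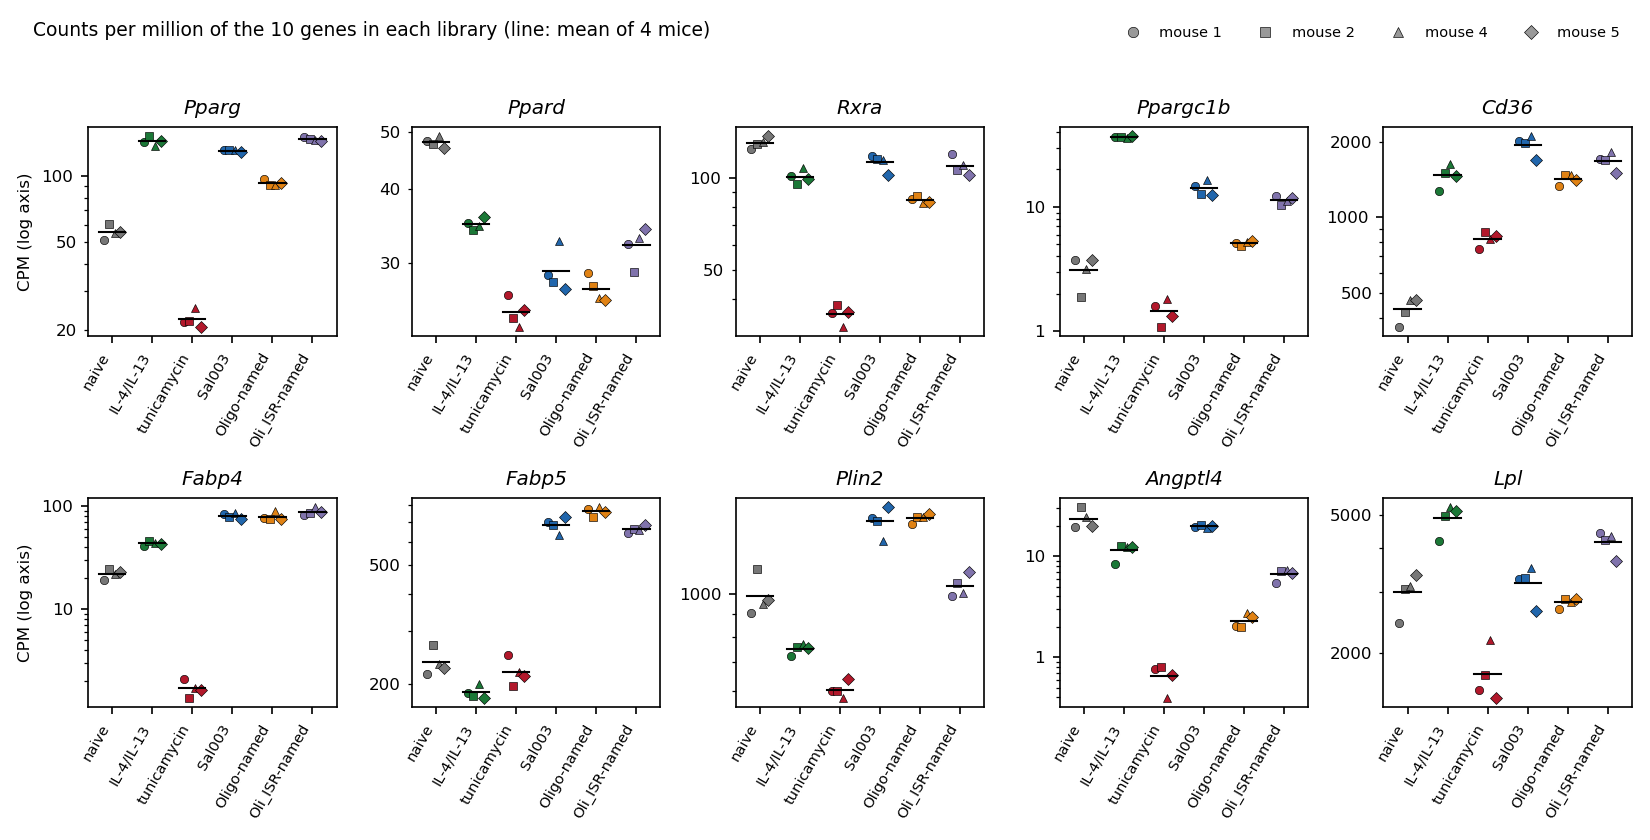
CPM of each gene in each of the 24 libraries on log axes, by group, with a symbol per mouse and a line at the mean of the 4 mice. *Pparg* and *Ppargc1b* were lowest with tunicamycin (means of 22.5 and 1.46 CPM), and the 4 mice of a group mostly lay close together, with exceptions such as naive mouse 2 for *Ppargc1b* at 1.88 CPM.

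*Pparg* (ENSMUSG00000000440) lies at chr6:115337675-115468268 on the plus strand of GRCm39. Its level in mice 1, 2, 4 and 5 was 51.0, 60.4, 55.1 and 55.9 CPM in naive macrophages and 144, 152, 137 and 144 CPM with IL-4/IL-13. Every IL-4/IL-13 library was above every naive library (log2 fold change 1.38 ± 0.05 SE, adjusted *P* = 1.92e-17). With tunicamycin the values were 21.8, 22.1, 25.3 and 20.7 CPM, below all naive libraries as well, a 6.42-fold fall from the IL-4/IL-13 level (log2 fold change -2.68 ± 0.06 SE, adjusted *P* = 3.96e-23) and a 2.47-fold difference from naive (log2 fold change -1.31 ± 0.06 SE, adjusted *P* = 7.21e-17). With Sal003 they were 131, 131, 132 and 129 CPM, all just under the IL-4/IL-13 range (log2 fold change -0.14 ± 0.05 SE, adjusted *P* = 0.0176). That small difference no longer passed without mouse 2 (adjusted *P* = 0.0707), without mouse 5 (adjusted *P* = 0.0804) or with no filter on low counts (adjusted *P* = 0.0721). The oligomycin groups parted. Oligo-named libraries held 97.6, 91.4, 91.1 and 93.4 CPM and were all lower than with IL-4/IL-13 alone (log2 fold change -0.63 ± 0.05 SE, adjusted *P* = 4.13e-11), whereas Oli_ISR-named libraries held 150.2, 148, 146 and 144 CPM, within the IL-4/IL-13 range (log2 fold change 0.03 ± 0.05 SE, 95% interval -0.07 to 0.13, adjusted *P* = 0.674). The difference between the oligomycin groups was itself past the threshold (log2 fold change -0.65 ± 0.05 SE, adjusted *P* = 1.06e-10). In order of level, Oli_ISR-named and IL-4/IL-13 came first and did not pass as different, followed by Sal003, Oligo-named, naive and tunicamycin, each of which passed against its neighbour.

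From the promoter table of RefSeq (build GRCm38.p6), 8 start-site windows were used for 5 of the 10 genes, *Pparg*, *Ppard*, *Rxra*, *Cd36* and *Plin2*. *Fabp4*, *Fabp5*, *Angptl4* and *Lpl* had no entry, and no window of *Ppargc1b* is reported here. The 250 bases before each start were searched on both strands for the binding element of PPAR with RXR, which is made of repeated AGGTCA copies, for an element of STAT6 and for one of ATF4, a transcription factor of the ISR. None of the 8 windows held AGGTCANAGGTCA (found in 0.0335% of all 32851 windows), its looser form AGGNCANAGGNCA (0.338%), the STAT6 element TTCNNNNGAA (5.85%) or the ATF4 element TGATGNAA (3.45%), where N is any base. A single AGGTCA, which is also a part of the first of these, was present in 5 of the 8 windows, beside 14.0% of all windows. The 4 windows shown are those with a single copy of AGGTCA, printed from 250 bases before the start up to the start on the strand of the gene, with AGGTCA or its complement TGACCT in capitals. A match of 6 letters is a description of these windows and not a bound site.
Pparg, chr6:115360894-115361143 (GRCm38.p6, plus strand): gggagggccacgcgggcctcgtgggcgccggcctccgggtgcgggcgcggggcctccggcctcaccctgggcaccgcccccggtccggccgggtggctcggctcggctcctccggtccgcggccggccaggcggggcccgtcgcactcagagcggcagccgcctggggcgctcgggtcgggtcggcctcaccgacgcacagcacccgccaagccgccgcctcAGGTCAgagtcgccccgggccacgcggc
Pparg, chr6:115362099-115362348 (GRCm38.p6, plus strand): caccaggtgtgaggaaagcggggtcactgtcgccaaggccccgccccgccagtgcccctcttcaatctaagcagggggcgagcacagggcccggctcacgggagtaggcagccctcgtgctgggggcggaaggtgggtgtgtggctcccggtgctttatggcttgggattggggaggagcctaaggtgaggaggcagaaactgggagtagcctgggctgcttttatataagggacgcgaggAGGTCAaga
Cd36, chr5:17835897-17836146 (GRCm38.p6, minus strand): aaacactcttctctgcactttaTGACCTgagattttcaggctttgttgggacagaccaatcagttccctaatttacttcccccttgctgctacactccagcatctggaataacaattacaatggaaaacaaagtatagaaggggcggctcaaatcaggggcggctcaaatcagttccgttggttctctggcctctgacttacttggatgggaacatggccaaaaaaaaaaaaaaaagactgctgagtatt
Plin2, chr4:86670060-86670309 (GRCm38.p6, minus strand): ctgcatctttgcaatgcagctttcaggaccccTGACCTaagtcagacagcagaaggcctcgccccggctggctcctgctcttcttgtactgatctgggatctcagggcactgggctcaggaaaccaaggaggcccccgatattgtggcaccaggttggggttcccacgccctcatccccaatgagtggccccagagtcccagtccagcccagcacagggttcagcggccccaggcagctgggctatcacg
In the windows of *Pparg* the copy spans positions -28 to -23 and -9 to -4 before the start, in that of *Cd36* -228 to -223, and in that of *Plin2* -218 to -213. A window of *Rxra* held the letters at 2 places, at positions -87 to -82 and -48 to -43.

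*Ppard* (ENSMUSG00000002250, chr17:28451674-28520448, plus strand), the gene of the widely expressed relative PPARδ, was highest in naive macrophages. Its level was 48.4, 47.7, 49.2 and 47.0 CPM there and 35.1, 34.2, 34.8 and 36.0 CPM with IL-4/IL-13, with no overlap (log2 fold change -0.46 ± 0.06 SE, adjusted *P* = 1.18e-07). The inhibitor groups held between 23.5 and 26.55 CPM with tunicamycin, between 27.2 and 32.8 CPM with Sal003, between 26.1 and 28.9 CPM in Oligo-named and between 29.0 and 34.3 CPM in Oli_ISR-named libraries. The falls from the IL-4/IL-13 level passed for tunicamycin (log2 fold change -0.49 ± 0.06 SE, adjusted *P* = 3.38e-08), Sal003 (log2 fold change -0.26 ± 0.06 SE, adjusted *P* = 4.47e-04) and the Oligo-named group (log2 fold change -0.37 ± 0.06 SE, adjusted *P* = 4.77e-06). The Oli_ISR-named group overlapped the IL-4/IL-13 libraries and did not pass (log2 fold change -0.12 ± 0.06 SE, 95% interval -0.24 to -0.00, adjusted *P* = 0.0816), although it did with upper-quartile normalization (adjusted *P* = 0.0157) and with at least 10 counts required in every library (adjusted *P* = 0.0346). Of the neighbours in the order naive, IL-4/IL-13, Oli_ISR-named, Sal003, Oligo-named and tunicamycin, only naive and IL-4/IL-13 passed as different from each other. Between the oligomycin groups the Oligo-named libraries were lower (log2 fold change -0.25 ± 0.06 SE, adjusted *P* = 0.00124). Over all libraries *Ppard* ranged from 23.5 to 49.2 CPM and *Pparg* from 20.7 to 152 CPM.

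*Rxra* (ENSMUSG00000015846, chr2:27566452-27653330, plus strand) encodes RXRα, the DNA-binding partner of both receptors. Naive libraries held 124, 129, 131 and 137 CPM and IL-4/IL-13 libraries 101, 95.4, 107 and 99.2 CPM, a fall without overlap (log2 fold change -0.37 ± 0.05 SE, adjusted *P* = 1.98e-06). Tunicamycin brought it to 36.0, 38.3, 32.6 and 36.2 CPM, 2.81-fold under IL-4/IL-13 alone (log2 fold change -1.49 ± 0.06 SE, adjusted *P* = 1.08e-17). Both *Pparg* and its partner had their lowest levels in these libraries. Sal003 libraries, at 118, 115, 114 and 102 CPM, overlapped the IL-4/IL-13 range and were slightly higher (log2 fold change 0.16 ± 0.05 SE, adjusted *P* = 0.0204). This call was lost under DESeq2 (adjusted *P* = 0.05), upper-quartile normalization (adjusted *P* = 0.0709), without mouse 1 (adjusted *P* = 0.162) and without mouse 2 (adjusted *P* = 0.131). Oligo-named libraries were lower than with IL-4/IL-13, at 85.4, 87.4, 82.5 and 83.0 CPM (log2 fold change -0.25 ± 0.06 SE, adjusted *P* = 2.78e-04), and Oli_ISR-named libraries, at 119, 106, 110 and 102 CPM, did not pass (log2 fold change 0.12 ± 0.05 SE, 95% interval 0.01 to 0.23, adjusted *P* = 0.0713). The Oligo-named group was also below the Oli_ISR-named group (log2 fold change -0.37 ± 0.05 SE, adjusted *P* = 5.5e-06). In the order of levels naive came first and differed from Sal003, Sal003 did not pass against Oli_ISR-named nor Oli_ISR-named against IL-4/IL-13, and Oligo-named and tunicamycin followed, each below its neighbour.

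*Ppargc1b* (ENSMUSG00000033871, chr18:61431195-61533735, minus strand), the gene of the coactivator PGC-1β, had the largest rise of the 10 genes with IL-4/IL-13. Naive libraries held 3.76, 1.88, 3.16 and 3.73 CPM and IL-4/IL-13 libraries 36.7, 36.7, 35.5 and 37.1 CPM (log2 fold change 3.53 ± 0.13 SE, adjusted *P* = 1.06e-17). All 4 inhibitor groups lay well below the cytokine level in every library. Tunicamycin libraries held 1.59, 1.09, 1.81 and 1.32 CPM, which was 25.2-fold lower (log2 fold change -4.65 ± 0.14 SE, adjusted *P* = 9.03e-20) and under the naive libraries as well (log2 fold change -1.13 ± 0.18 SE, adjusted *P* = 4.62e-06). Sal003 libraries held 14.8, 12.8, 16.4 and 12.5 CPM, 2.59-fold lower (log2 fold change -1.37 ± 0.11 SE, adjusted *P* = 7.33e-11), a fall that was under 2.5-fold when mouse 5 was left out. The oligomycin groups again differed in size. Oligo-named libraries, at 5.16, 4.84, 5.18 and 5.35 CPM, were 7.10-fold below IL-4/IL-13 (log2 fold change -2.83 ± 0.12 SE, adjusted *P* = 1.55e-16), and Oli_ISR-named libraries, at 12.3, 10.4, 11.2 and 11.8 CPM, 3.19-fold (log2 fold change -1.67 ± 0.11 SE, adjusted *P* = 2.05e-12). Oligo-named libraries were 2.23-fold under Oli_ISR-named ones (log2 fold change -1.15 ± 0.12 SE, adjusted *P* = 4.08e-08). In the order IL-4/IL-13, Sal003, Oli_ISR-named, Oligo-named, naive and tunicamycin, each neighbouring pair passed except Sal003 and Oli_ISR-named (adjusted *P* = 0.0627). The libraries of that pair did not overlap, and it passed in 6 of the 10 alternatives, among them the replicate block by mouse (adjusted *P* = 0.0265), DESeq2 (adjusted *P* = 0.0225) and the test without mouse 2 (adjusted *P* = 0.0276). In the libraries where *Ppargc1b* was lowest, with tunicamycin and in naive macrophages, it rested on few reads, from 23 to 32 and from 33 to 77 a library.

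*Cd36* (ENSMUSG00000002944, chr5:17986432-18094067, minus strand) encodes the scavenger receptor that takes up long-chain fatty acids and oxidized lipoprotein. It rose with IL-4/IL-13 and stayed above the naive level in all inhibitor groups, tunicamycin included. Naive libraries held 368, 421, 471 and 469.5 CPM, IL-4/IL-13 libraries 1280, 1506, 1639 and 1467 CPM and tunicamycin libraries 749, 876, 825 and 842 CPM. The 3 groups did not overlap, with a rise of 3.41-fold under IL-4/IL-13 (log2 fold change 1.77 ± 0.08 SE, adjusted *P* = 2.79e-15) and a fall of 1.79-fold from there with tunicamycin (log2 fold change -0.84 ± 0.08 SE, adjusted *P* = 1.28e-09), which left it 1.90-fold above naive (log2 fold change 0.93 ± 0.08 SE, adjusted *P* = 2.28e-10). Sal003 libraries had the highest mean, with 2008, 1973, 2108 and 1695 CPM and no overlap with IL-4/IL-13 (log2 fold change 0.40 ± 0.08 SE, adjusted *P* = 2.14e-04). Neither oligomycin group passed against IL-4/IL-13. The Oligo-named libraries held 1330, 1474, 1478 and 1411 CPM (log2 fold change -0.05 ± 0.08 SE, 95% interval -0.22 to 0.12, adjusted *P* = 0.61) and the Oli_ISR-named libraries 1712, 1687, 1817 and 1507 CPM (log2 fold change 0.19 ± 0.08 SE, 95% interval 0.02 to 0.36, adjusted *P* = 0.0531). The latter did pass with the mouse as a replicate block (adjusted *P* = 0.016) and with no filter on low counts (adjusted *P* = 0.0401). Oligo-named libraries were slightly under Oli_ISR-named ones (log2 fold change -0.24 ± 0.08 SE, adjusted *P* = 0.021), a call that was lost without mouse 1 (adjusted *P* = 0.0814), mouse 2 (adjusted *P* = 0.0643) or mouse 4 (adjusted *P* = 0.0705). The order was Sal003, Oli_ISR-named, IL-4/IL-13, Oligo-named, tunicamycin and naive, in which none of the 3 neighbouring pairs among the first 4 groups passed, although Sal003 and Oli_ISR-named did with the replicate block (adjusted *P* = 0.0243) and with no filter on low counts (adjusted *P* = 0.0395).

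*Fabp4* (ENSMUSG00000062515, chr3:10268785-10273737, minus strand), which encodes a carrier of fatty acids found in fat cells and macrophages, rose with IL-4/IL-13, rose further with Sal003 and in both oligomycin groups, and was at its lowest with tunicamycin. Naive libraries held 19.0, 24.6, 21.8 and 22.7 CPM and IL-4/IL-13 libraries 40.8, 45.7, 44.1 and 42.4 CPM (log2 fold change 0.98 ± 0.08 SE, adjusted *P* = 5.33e-11). With tunicamycin 2.10, 1.38, 1.70 and 1.63 CPM remained, 25.4-fold less than with IL-4/IL-13 (log2 fold change -4.67 ± 0.11 SE, adjusted *P* = 8.07e-22) and 12.9-fold less than in naive macrophages (log2 fold change -3.69 ± 0.12 SE, adjusted *P* = 2.79e-19). The other inhibitor groups were all above the IL-4/IL-13 libraries. Sal003 libraries held 83.2, 77.7, 85.4 and 74.2 CPM (log2 fold change 0.89 ± 0.07 SE, adjusted *P* = 1.73e-10), Oligo-named libraries 77.0, 74.8, 88.9 and 74.7 CPM (log2 fold change 0.86 ± 0.07 SE, adjusted *P* = 1.09e-10) and Oli_ISR-named libraries 82.5, 85.0, 97.0 and 88.0 CPM (log2 fold change 1.02 ± 0.07 SE, adjusted *P* = 1.01e-11). These 3 groups overlapped each other and did not pass as different, with a difference of Oligo-named from Oli_ISR-named libraries of -0.16 ± 0.07 (95% interval -0.30 to -0.02, adjusted *P* = 0.0678) that did pass with the mouse as a replicate block (adjusted *P* = 0.0354). They were followed by IL-4/IL-13, naive and tunicamycin, each below the one before. On the opposite strand a long noncoding RNA, Gm66293, overlaps 24.0% of the exon bases of *Fabp4*, and since the sources used here do not say whether strand was used in counting, reads of the pair cannot be told apart.

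*Fabp5* (ENSMUSG00000027533, chr3:10077602-10081674, plus strand) encodes the related epidermal fatty acid–binding protein and was lower with the cytokines, where *Fabp4* was higher. It was 216, 269, 234 and 226 CPM in naive and 187, 182, 200.3 and 179.7 CPM with IL-4/IL-13, a small fall (log2 fold change -0.33 ± 0.07 SE, adjusted *P* = 1.02e-04). Tunicamycin libraries, at 250.5, 197, 219.7 and 213 CPM, overlapped the IL-4/IL-13 range and were slightly higher (log2 fold change 0.23 ± 0.07 SE, adjusted *P* = 0.00285), so that *Fabp5* was the exception among the 10 genes. Tunicamycin and naive macrophages did not pass as different (log2 fold change -0.10 ± 0.07 SE, 95% interval -0.24 to 0.03, adjusted *P* = 0.155). The difference passed without mouse 1 (adjusted *P* = 0.0403), with upper-quartile normalization (adjusted *P* = 0.0274) and with at least 10 counts required in every library (adjusted *P* = 0.035), and turned to 0.02 on the log2 scale without mouse 2. The other inhibitors gave the largest rises of any of the 10 genes in their comparisons. Sal003 libraries held 700.1, 681, 633 and 726 CPM, 3.66-fold above IL-4/IL-13 (log2 fold change 1.87 ± 0.07 SE, adjusted *P* = 1.07e-16). Oligo-named libraries held 771, 727, 783 and 756 CPM, 4.05-fold above it (log2 fold change 2.02 ± 0.07 SE, adjusted *P* = 2.35e-18), and Oli_ISR-named libraries 641, 662, 656 and 683 CPM, 3.53-fold above it (log2 fold change 1.82 ± 0.07 SE, adjusted *P* = 7.89e-17). No library of these 3 groups overlapped the naive, IL-4/IL-13 or tunicamycin libraries. Oligo-named libraries were slightly above Oli_ISR-named ones (log2 fold change 0.20 ± 0.06 SE, adjusted *P* = 0.0149), which was lost without mouse 1 (adjusted *P* = 0.0556) or mouse 4 (adjusted *P* = 0.0791), while Oligo-named and Sal003 did not pass (adjusted *P* = 0.0583, but 0.0326 without mouse 2, 0.035 with upper-quartile normalization and 0.00725 with only the groups compared), nor did Sal003 and Oli_ISR-named. The transcript of *Fabp5* has 3 near-identical copies elsewhere in GRCm39 (at least 95% identity over at least 150 bases), the longest of which covers 68.1% of it, so that its level is uncertain. Reads aligned to several places were listed apart from the genes in the counts, and how many of them came from *Fabp5* is not known. None of the other 9 genes had such a copy.

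*Plin2* (ENSMUSG00000028494, chr4:86565912-86588459, minus strand) encodes perilipin 2, the coat protein of lipid droplets in most cells. Naive libraries held 904, 1137, 949.7 and 969 CPM and IL-4/IL-13 libraries 722, 757, 769 and 754 CPM, all lower (log2 fold change -0.40 ± 0.06 SE, adjusted *P* = 3.2e-06). Tunicamycin libraries were lower again, at 603, 602, 580.5 and 639.5 CPM (log2 fold change -0.31 ± 0.06 SE, adjusted *P* = 6.28e-05). The other inhibitors moved *Plin2* upward in every mouse. Sal003 libraries held 1487, 1467, 1318 and 1573 CPM, 1.95-fold above IL-4/IL-13 (log2 fold change 0.96 ± 0.06 SE, adjusted *P* = 1.96e-12). Oligo-named libraries held 1438, 1496, 1493 and 1520 CPM, 1.98-fold above it (log2 fold change 0.99 ± 0.06 SE, adjusted *P* = 3.56e-13), and Oli_ISR-named libraries 990.5, 1059, 1005 and 1121 CPM, 1.39-fold above it (log2 fold change 0.48 ± 0.06 SE, adjusted *P* = 3.12e-07). *Plin2* was higher in Oligo-named than in Oli_ISR-named libraries, with no overlap (log2 fold change 0.51 ± 0.06 SE, adjusted *P* = 2.05e-07). In the order of levels Oligo-named and Sal003 did not pass as different, nor did Oli_ISR-named and naive, whereas IL-4/IL-13 was below naive and tunicamycin below IL-4/IL-13.

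*Lpl* (ENSMUSG00000015568, chr8:69284603-69360100, plus strand) encodes the secreted lipoprotein lipase, whose activity *Angptl4* inhibits. Naive libraries held 2439, 3065, 3130 and 3351 CPM and IL-4/IL-13 libraries 4213, 4956, 5249 and 5110 CPM, all higher (log2 fold change 0.70 ± 0.11 SE, adjusted *P* = 3.42e-06). Tunicamycin libraries held 1569, 1732, 2192 and 1492 CPM, all below both (log2 fold change -1.48 ± 0.11 SE, adjusted *P* = 5.02e-12). Sal003 and the Oligo-named group gave levels of *Lpl* that overlapped those of naive macrophages. Sal003 libraries held 3264, 3281, 3518 and 2643 CPM (log2 fold change -0.62 ± 0.11 SE, adjusted *P* = 2.9e-05) and Oligo-named libraries 2684, 2874, 2817 and 2866 CPM (log2 fold change -0.80 ± 0.11 SE, adjusted *P* = 4.47e-07), and neither passed against naive, with differences of 0.08 ± 0.11 (95% interval -0.14 to 0.30) and -0.09 ± 0.11 (95% interval -0.31 to 0.13). Oli_ISR-named libraries, at 4421, 4238, 4337 and 3687 CPM, overlapped the IL-4/IL-13 libraries (log2 fold change -0.23 ± 0.11 SE, 95% interval -0.45 to -0.01, adjusted *P* = 0.076). That fall passed in 5 of the 10 alternatives, among them the replicate block (adjusted *P* = 0.0396) and the test without mouse 1 (adjusted *P* = 0.0242). Oligo-named libraries were below Oli_ISR-named ones in every mouse (log2 fold change -0.57 ± 0.11 SE, adjusted *P* = 1.19e-04). The order was IL-4/IL-13, Oli_ISR-named, Sal003, naive, Oligo-named and tunicamycin, in which Oli_ISR-named was above Sal003 (adjusted *P* = 0.0111), a call lost without mouse 1 (adjusted *P* = 0.0504) or mouse 2 (adjusted *P* = 0.0598), and Oligo-named above tunicamycin.

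*Angptl4* (ENSMUSG00000002289, chr17:33992724-34000804, minus strand), a known target gene of the PPARs, fell with IL-4/IL-13, where *Lpl* rose. It was highest in naive macrophages, at 19.4, 30.6, 24.4 and 19.9 CPM, and lower with IL-4/IL-13, at 8.47, 12.8, 12.5 and 12.4 CPM (log2 fold change -1.03 ± 0.13 SE, adjusted *P* = 2.94e-07). With tunicamycin only 0.770, 0.809, 0.397 and 0.662 CPM was left, 17.1-fold less (log2 fold change -4.10 ± 0.21 SE, adjusted *P* = 4.42e-15). Sal003 and the oligomycin groups moved it in opposite directions. Sal003 libraries were close together at 19.6, 20.2, 19.1 and 20.1 CPM, all above the IL-4/IL-13 range (log2 fold change 0.78 ± 0.13 SE, adjusted *P* = 2.95e-05) and overlapping the naive libraries (log2 fold change -0.25 ± 0.13 SE, 95% interval -0.51 to 0.01, adjusted *P* = 0.0917), although that difference passed with the mouse as a replicate block (adjusted *P* = 0.0389), without mouse 1 (adjusted *P* = 0.0338) and with upper-quartile normalization (adjusted *P* = 0.0474). Oligo-named libraries held 2.04, 1.98, 2.72 and 2.498 CPM, 5.00-fold less than with IL-4/IL-13 (log2 fold change -2.32 ± 0.17 SE, adjusted *P* = 8.78e-12), and Oli_ISR-named libraries 5.42, 7.22, 7.35 and 6.89 CPM (log2 fold change -0.78 ± 0.15 SE, adjusted *P* = 7.2e-05). The oligomycin groups differed by 2.92-fold, the largest difference among the 10 genes in that comparison (log2 fold change -1.55 ± 0.18 SE, adjusted *P* = 1.24e-07). Few reads of *Angptl4* stood behind its low levels, from 42 to 52 a library in Oligo-named libraries and from 7 to 17 with tunicamycin. In the order naive, Sal003, IL-4/IL-13, Oli_ISR-named, Oligo-named and tunicamycin, each pair of neighbours passed except naive and Sal003.

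Levels of different genes can be compared only per length, for which the share of transcripts (TPM) was computed from the counts and exon lengths. With either length used here, all exons or the longest transcript, *Lpl* was the most abundant of the 10 in every group. With all exons its mean was 1824 TPM in IL-4/IL-13–treated and 737 TPM in tunicamycin-treated macrophages. *Plin2*, *Fabp5* and *Cd36* came next, in an order that changed with the condition. In naive macrophages *Plin2* was at 622, *Fabp5* at 311 and *Cd36* at 166 TPM, whereas with IL-4/IL-13 *Cd36* came second at 533 TPM, before *Plin2* at 446 and *Fabp5* at 234 TPM. In Oligo-named libraries *Fabp5* reached 1058 TPM and *Plin2* 988 TPM with all exons as length, both close to *Lpl* at 1175 TPM. With the longest transcript as length the means of *Fabp5*, *Plin2* and *Lpl* there were 848, 1472 and 2359 TPM. Among the regulators, *Rxra* at 91.9 TPM exceeded *Pparg* at 38.6 and *Ppard* at 31.0 TPM in naive macrophages, while *Pparg* at 94.6 TPM exceeded *Rxra* at 67.0 and *Ppard* at 21.3 TPM with IL-4/IL-13. With tunicamycin *Pparg* at 15.4 to 18.5 TPM and *Ppard* at 16.0 to 18.4 TPM overlapped, while with the longest transcript as length their means were 19.5 and 24.4 TPM. *Ppargc1b* went from 2.65 TPM in naive to 28.9 TPM with IL-4/IL-13, and *Angptl4* was the least abundant of the 10 in 4 groups, down to 0.759 TPM with tunicamycin. With the longest transcript as length in place of all exons, 20 of the 60 positions in these orders changed, mostly among *Cd36*, *Plin2* and *Fabp5*, so that the order of these 3 depends on the length used. For *Fabp4* the annotated exons cover 4953 bases, in 1 block over the whole gene, the longest transcript 4231 and the principal transcript 1360. In the same order, *Fabp5* has 3667, 3238 and 993 bases, and *Plin2* 7684, 3651 and 2050. *Cd36* has 12624, 4368 and 3505 bases, and *Lpl* 12225, 4308 and 4115. The TPM of *Fabp4*, *Fabp5* and *Plin2* is thus low for their read counts under either length. The order with principal transcripts as length was not computed, so that the place of *Lpl* above *Fabp5* and *Plin2* holds only for the lengths used.

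**Figure D3:**
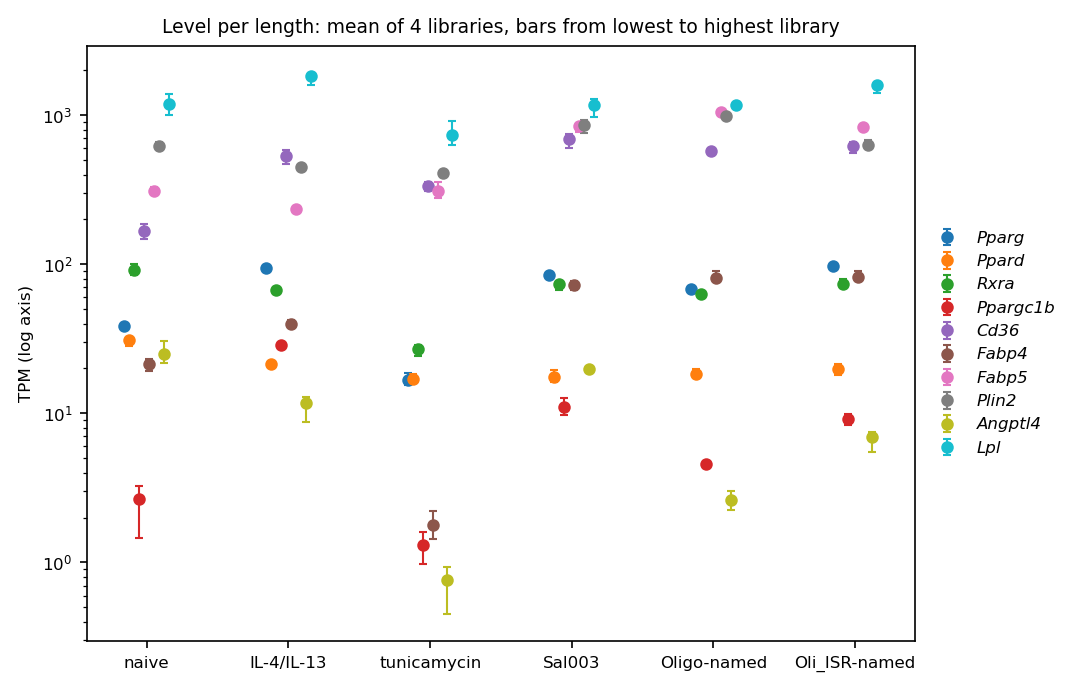
Mean TPM of the 10 genes in each group, with all exons as length, on a log axis. Bars run from the lowest to the highest of the 4 libraries. *Lpl* is at the top of every group (737 to 1824 TPM), and *Ppargc1b*, *Fabp4* and *Angptl4* spread over the widest range, each falling under 2 TPM with tunicamycin.

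Over the 24 libraries, which share 6 conditions and 4 mice, *Pparg* had its highest Pearson's r of log2 CPM among the 10 genes with *Fabp4* (0.94). *Ppargc1b* (0.89) and *Lpl* (0.87) came next, and *Ppard* last (0.18). *Pparg* and *Fabp4* both rose with the cytokines and fell with tunicamycin, but they parted with the other inhibitors. Against IL-4/IL-13 their log2 fold changes were -0.14 and 0.89 with Sal003, -0.63 and 0.86 in Oligo-named and 0.03 and 1.02 in Oli_ISR-named libraries. *Plin2* and *Fabp5* had an r of 0.85, *Rxra* and *Angptl4* of 0.90, and *Ppard* and *Cd36* of -0.55. These values describe how the levels moved over 24 libraries in 6 groups and are not tests. Of all tested genes with a mean of at least 50 counts, those most like *Pparg* were *Gatm*, *Slc25a13* and *Sestd1* (r between 0.9905 and 0.995), those most like *Ppargc1b* were *Ccl22*, *Tnfrsf21* and *Ear2* (0.981 to 0.983), and those most like *Rxra* were *Paqr7*, *Mocs1* and *Tmcc3* (0.982 to 0.986). For *Ppard* they were *Akr1b8*, *Ulk1* and *Cbx7* (0.962 to 0.966), for *Cd36* *Prps1* and *Cisd1* (both 0.971), for *Fabp4* *Snx5*, *Cd22* and *Vim* (0.990 to 0.9925), and for *Fabp5* *Tmem104*, *Naglu* and *Spp1* (0.9795 to 0.985). *Plin2* was most like *Itgb7*, *Il18bp* and *Slc27a1* (0.9385 to 0.968), *Angptl4* most like *Ap1b1*, *Gm45606* and *Pitpna* (0.978 to 0.984), and *Lpl* most like *Gpi1*, *Scd1* and *Dcstamp* (0.941 to 0.948). With Spearman's correlation in place of Pearson's at least 1 of the 3 genes changed for all 10.

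The remaining 9 pairs of groups show where each inhibitor group stood against naive macrophages and against the other inhibitors. For these pairs every share over all tested genes is of those that passed in either direction. It can be set beside the number of the 10 genes that passed, but not beside the number above or below. Tunicamycin left 1 of the 10 genes above naive (*Cd36*), 8 below and 1 not passing (*Fabp5*), beside 77.6% of all tested genes that passed in either direction. Sal003 gave 6 above naive, 2 below and 2 not passing, beside 62.5%, with *Rxra* no longer below naive without mouse 5 (adjusted *P* = 0.0634), the Oligo-named group 6 above, 3 below and 1 not passing, beside 71.0%, and the Oli_ISR-named group 6 above, 3 below and 1 not passing, beside 63.8%. *Fabp4* was 3.64-fold above naive with Sal003, 3.58-fold in Oligo-named and 4.01-fold in Oli_ISR-named libraries. Tunicamycin was below Sal003 for all 10 genes, beside 71.9% of tested genes in either direction, although *Ppard* no longer passed without mouse 4 (adjusted *P* = 0.056). It was below the Oli_ISR-named group for all 10, beside 71.1%, and below the Oligo-named group for 9, beside 63.5%, where *Ppard* did not pass (log2 fold change -0.13 ± 0.06 SE, 95% interval -0.25 to -0.01, adjusted *P* = 0.0592) except with upper-quartile normalization (adjusted *P* = 0.0139), at least 10 counts in every library (adjusted *P* = 0.0277) or only the groups compared (adjusted *P* = 0.0363). *Fabp4* was 51.7-fold lower with tunicamycin than in Oli_ISR-named libraries. Oligo-named against Sal003 gave 5 lower and 5 not passing, beside 51.5%, and the 5 were *Pparg* (log2 fold change -0.48 ± 0.05 SE, adjusted *P* = 1.14e-08), *Rxra* (log2 fold change -0.41 ± 0.05 SE, adjusted *P* = 9.02e-07), *Ppargc1b* (log2 fold change -1.46 ± 0.12 SE, adjusted *P* = 3.3e-10), *Cd36* (log2 fold change -0.45 ± 0.08 SE, adjusted *P* = 5.38e-05) and *Angptl4* (log2 fold change -3.10 ± 0.16 SE, adjusted *P* = 6.09e-14). Oli_ISR-named against Sal003 gave 2 higher, *Pparg* and *Lpl*, 2 lower, *Plin2* and *Angptl4*, and 6 not passing, beside 18.5%. In that comparison *Angptl4* differed by 2.94-fold and *Plin2* by 1.3998-fold, while *Pparg* differed by 1.13-fold and no longer passed without mouse 1 (adjusted *P* = 0.11), without mouse 5 (adjusted *P* = 0.0968) or with no filter on low counts (adjusted *P* = 0.0713).

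Related genes were counted in 5 lists around the 10, and values in parentheses after a gene of these lists are its log2 fold change ± SE. Of all tested genes, 30.1% were higher and 30.4% lower with IL-4/IL-13. These shares were 38.7% and 37.6% with tunicamycin, 25.9% and 24.6% with Sal003, and 34.0% and 32.2% in Oligo-named libraries. They were 27.9% and 26.4% in Oli_ISR-named libraries, and 19.9% and 21.3% between the oligomycin groups. Counts near these shares do not set a list apart. Of 19 regulators, nuclear receptors with their coactivators and corepressors, 16 were tested, and the cytokines raised 4 and lowered 7 (median log2 fold change -0.11, beside -0.02 over all tested genes). *Lpin1*, a phosphatidate phosphatase and coactivator, rose (0.84 ± 0.07), and the coactivators *Ncoa3* (-0.61 ± 0.06) and *Ncoa1* (-0.59 ± 0.08) fell. Tunicamycin raised 5 and lowered 9 (median -0.14). The latter included *Lpin1* (-2.63 ± 0.08) and *Nr1h3*, the gene of the oxysterol receptor LXRα (-2.01 ± 0.14), and the former *Pprc1*, a relative of PGC-1β (1.36 ± 0.07), and the corepressor *Nrip1* (1.13 ± 0.11). Sal003 raised 7 and lowered 4 (median 0.15), with *Nr1h3* moving up (0.91 ± 0.11). The Oligo-named group had 7 higher and 6 lower (median 0.08), with *Pprc1* up (0.87 ± 0.07) and *Lpin1* down (-1.39 ± 0.07), and the Oli_ISR-named group 9 higher and 3 lower (median 0.18), with the corepressor *Ncor1* up (0.46 ± 0.10) and *Lpin1* down (-0.65 ± 0.07). Between the oligomycin groups 2 were higher and 5 lower in Oligo-named libraries (median -0.08), with *Lpin1* down (-0.75 ± 0.07).

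Of 13 genes that control lipases or accompany them, 9 were tested. The cytokines raised 2, *Sel1l*, an adaptor of degradation in the endoplasmic reticulum that *Lpl* maturation needs (0.47 ± 0.08), and *Lmf1*, the lipase maturation factor (0.46 ± 0.07), and lowered 4, with *Apoe*, the gene of apolipoprotein E, falling (-1.99 ± 0.10) (median of the list -0.15). Tunicamycin raised the same 2 genes further, *Sel1l* (2.39 ± 0.08) and *Lmf1* (1.31 ± 0.06), while 4 fell, *Apoe* (-2.80 ± 0.11) and the lysosomal lipase *Lipa* (-0.60 ± 0.07) among them (median -0.30). In these libraries *Lpl* itself was at its lowest. With Sal003 none of the 9 passed (median -0.06), 1 had an unadjusted *P* under 0.05, and DESeq2 called 0. The Oligo-named group had 2 higher and 4 lower (median -0.16), with *Apoe* (-0.58 ± 0.10) and *Lipa* (-0.47 ± 0.07) down, and the Oli_ISR-named group had 1 higher and 8 that did not pass. Between the oligomycin groups 1 was higher and 2 lower (median -0.11), the latter being *Apoe* (-0.62 ± 0.10) and *Lipa* (-0.54 ± 0.07).

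Of 25 genes of fatty acid uptake and activation, 20 were tested. The cytokines raised 6 and lowered 10 (median -0.17), with large rises of *Olr1*, a receptor for oxidized lipoprotein (4.90 ± 0.18), and of *Slc27a3*, an acyl-CoA synthetase of the fatty acid transport protein family (4.45 ± 0.13), and with falls of *Cav1*, the gene of caveolin (-2.21 ± 0.15), and *Fabp3* (-1.45 ± 0.20). *Olr1* was lower in every inhibitor group, with a mean of 9.93 CPM with the cytokines alone, 0.0631 CPM with tunicamycin, 4.20 CPM with Sal003, 0.946 CPM in Oligo-named and 2.35 CPM in Oli_ISR-named libraries. *Slc27a3* was lower with tunicamycin (-3.66 ± 0.12), with Sal003 (-3.68 ± 0.12), in Oligo-named (-4.27 ± 0.13) and in Oli_ISR-named libraries (-3.60 ± 0.12). Other carriers of the family moved up with Sal003, *Fabp3* (2.10 ± 0.20) and *Fabp7* (1.89 ± 0.14), in Oligo-named libraries, *Fabp3* (1.24 ± 0.21) and *Fabp7* (1.94 ± 0.14), and in Oli_ISR-named libraries, *Fabp3* (1.41 ± 0.20) and *Fabp7* (2.10 ± 0.14), while *Fabp7* fell with tunicamycin (-3.95 ± 0.26). *Acot2*, a mitochondrial thioesterase of acyl-CoA, and *Cav1* were higher in all 4 inhibitor groups, by 2.72 and 2.41 on the log2 scale with tunicamycin, 2.07 and 3.43 in Oligo-named, 1.00 and 1.02 in Oli_ISR-named and 0.20 and 0.91 in Sal003 libraries. In all, tunicamycin raised 9 and lowered 8 of the 20 (median 0.11), Sal003 raised 10 and lowered 6 (median 0.15), the Oligo-named group had 9 higher and 7 lower (median 0.05), and the Oli_ISR-named group 11 higher and 5 lower (median 0.21). Oligo-named against Oli_ISR-named libraries had 3 higher, with *Cav1* (2.40 ± 0.13) and *Acot2* (1.06 ± 0.07), and 8 lower, with the acyl-CoA–binding protein gene *Dbi* (-0.84 ± 0.09) and the lipoprotein receptor gene *Scarb1* (-0.72 ± 0.07) (median -0.16).

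Of 24 genes of lipid droplets, 16 were tested, and the other perilipins *Plin1*, *Plin4* and *Plin5* were among the 8 that had too few counts. The cytokines raised 4 and lowered 5 (median -0.06), with *Plin3* up (0.53 ± 0.04) and the hormone-sensitive lipase gene *Lipe* down (-0.56 ± 0.06). Tunicamycin raised 9 and lowered 6 (median 0.15). *Gpat4*, an acyltransferase of glycerolipid synthesis (1.61 ± 0.05), and *Fitm2* (1.36 ± 0.09) rose, and *Pnpla2*, the adipose triglyceride lipase (-1.42 ± 0.06), and *Mgll*, the monoacylglycerol lipase (-1.28 ± 0.19), fell. *Abhd5*, the coactivator of *Pnpla2*, was higher with IL-4/IL-13 than in naive macrophages (0.37 ± 0.04), and higher again with tunicamycin (0.13 ± 0.04), with Sal003 (0.74 ± 0.04), in Oligo-named (0.78 ± 0.04) and in Oli_ISR-named libraries (0.79 ± 0.04), so that it also rose in the comparisons where *Plin2* fell. Sal003 raised 9 of the 16 and lowered 2 (median 0.29), with *Bscl2*, the seipin gene, up (0.37 ± 0.07). The Oligo-named group had 8 higher and 3 lower (median 0.31), with the hypoxia-inducible droplet gene *Hilpda* up (1.32 ± 0.12) and *Mgll* (-1.23 ± 0.19) and *Pnpla2* (-0.55 ± 0.05) down. The Oli_ISR-named group had 11 higher and 1 lower (median 0.31), with *Hilpda* up (0.68 ± 0.13) and *Mgll* down (-0.96 ± 0.19). Between the oligomycin groups 3 were higher, with *Hilpda* among them (0.64 ± 0.11), and 5 lower, with *Pnpla2* among them (-0.47 ± 0.05) (median -0.04).

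Of 33 genes of fatty acid beta-oxidation, 30 were tested. With IL-4/IL-13, 19 rose and 2 fell, with a median log2 fold change of 0.25 beside -0.02 over all tested genes. *Etfa*, a subunit of the flavoprotein that passes electrons from the pathway to the respiratory chain (1.26 ± 0.05), and *Crat*, the carnitine acetyltransferase (1.15 ± 0.05), were among those that rose, and the peroxisomal thiolase *Acaa1a* (-0.45 ± 0.06) fell. Tunicamycin lowered 25 of the 30 and raised 4 (median -0.72). *Acox3*, a peroxisomal acyl-CoA oxidase (-1.78 ± 0.05), and *Ucp2*, a carrier of the inner mitochondrial membrane rather than an enzyme of the pathway (-3.73 ± 0.07), fell, and the enoyl-CoA isomerases *Eci2* (1.04 ± 0.06) and *Eci1* (0.42 ± 0.08) rose. Sal003 lowered 14 and raised 6 (median -0.14), with *Ucp2* down (-1.24 ± 0.06) and the enoyl-CoA hydratase *Echs1* up (0.44 ± 0.05). The Oligo-named group had 23 lower and 5 higher (median -0.47), with *Ucp2* (-2.47 ± 0.06) and the mitochondrial thiolase *Acaa2* (-1.25 ± 0.07) down, and the Oli_ISR-named group had 17 lower and 4 higher (median -0.29), with *Ucp2* (-0.98 ± 0.06) and *Crat* (-0.72 ± 0.05) down. Between the oligomycin groups 17 were lower and 2 higher in Oligo-named libraries (median -0.25), with *Ucp2* (-1.49 ± 0.06) and *Acox3* (-0.62 ± 0.05) down. The lists were counted and not tested.

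**Figure D4:**
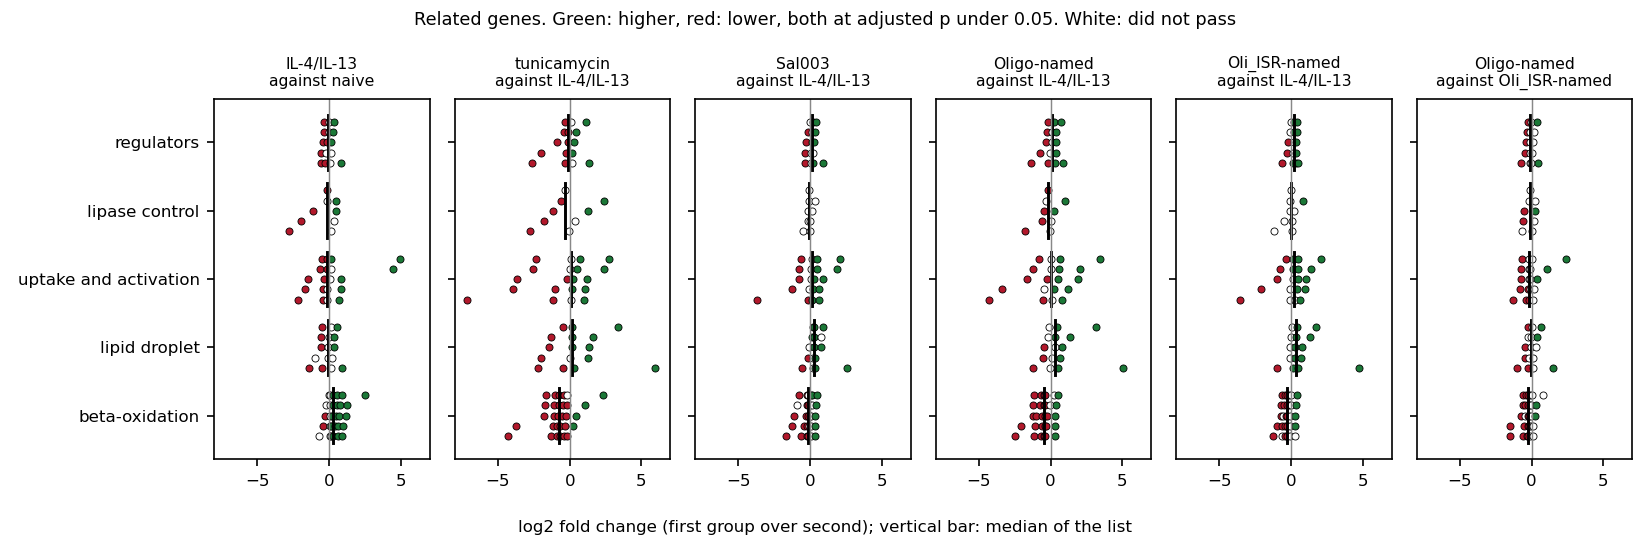
Log2 fold changes of the tested genes of the 5 lists in the same 6 comparisons, 1 point a gene, with a vertical bar at the median of each list. Beta-oxidation genes lie mostly right of 0 with IL-4/IL-13 (median 0.25) and mostly left of 0 with tunicamycin (median -0.72) and in Oligo-named libraries (median -0.47).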

How the data were processed

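Libraries of 24 cultures of bone marrow–derived macrophages, 4 mice in each of 6 groups, were sequenced by the authors, who deposited a table of read counts per Ensembl gene. Per the submitters' processing notes and the study's methods, reads were trimmed with cutadapt 1.8, aligned to GRCm39 with STAR 2.7 and counted with HTSeq 0.9.1; whether strand was used in counting is not given in the sources used here. A deposited TPM table was not used, because its header does not match its columns in number. Columns were matched to samples by library name, and 0 columns were left unmatched. Lines for reads not assigned to a gene (12.7% to 15.2% of a library), ambiguous and multiply aligned reads included, entered neither library sizes nor tests.

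The deposited counts were tested with edgeR 4.0.16 (R 4.3.3, limma 3.58.1), by its quasi-likelihood test, with TMM factors, genes kept by filterByExpr, and 1 model for all 24 libraries. *P* values were adjusted by the Benjamini-Hochberg method over the 13679 genes tested in each comparison, with thresholds of 0.05 and, where stated, 2.5-fold. Correlations used log2 CPM with a prior count of 2. TPM was computed from the counts and the exon lengths of GENCODE M39, and copies of the transcripts in GRCm39 were searched with minimap2 2.31. That annotation held 56323 of the 56884 genes in the count table, so its release differs from the one used in counting. The script was tested on simulated data. Depth was 16238727 to 26725278 reads on genes, and replicates of a group differed by more than sampling noise. The naive library of mouse 2 stood furthest apart. Its chi-square per gene was 26.8 to 35.0 against the other naive libraries, which gave 5.92 to 7.79 among themselves. Among naive libraries it was the highest for *Fabp5*, *Plin2* and *Angptl4*, among others, and the lowest for *Ppargc1b*.

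Same-numbered libraries share a mouse. The correlation of their deviations from group means had a median r of 0.236 (over 0.1 in 56 of 60 pairs), against -0.054 between mice (over 0.1 in 7 of 180 pairs). Fits without this pairing are reported as in the design, and the mouse entered as a block in an alternative. Further alternatives were upper-quartile factors, a test of all genes with any count, DESeq2 1.42.0, at least 10 counts in every library, only the groups compared, leaving out each mouse, another length for TPM and Spearman's correlation. The 10 genes, the lists and the tests were chosen with earlier results of these data known. Of each list and comparison, up to 2 genes with the largest rise and 2 with the largest fall could be named, among those that passed in the same direction in all 4 mice with a mean of at least 50 counts, and values of a gene so named in further comparisons were added after they were seen; the 3 genes most alike were taken by Pearson's r among genes with that mean, of which 1 is not reported here.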

Additional observations from a re-analysis of the deposited data

Results flagged for a closer look

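In 2 of the 60 sets of 4 libraries formed by the 10 genes and 6 groups, 1 library stood apart from the other 3 by Dixon's criterion, which chance meets in about 1 of 20 sets. *Angptl4* was 8.47 CPM in the IL-4/IL-13 library of mouse 1, where the nearest of the other 3 was 12.4 CPM (gap over range 0.912). *Fabp4* was 88.9 CPM in the Oligo-named library of mouse 4, where the nearest was 77.0 CPM (gap over range 0.833).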

How the results depend on the processing

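Of 1485 fold changes of the 10 genes recomputed under the alternatives, 1429 kept their direction and side of the threshold, 30 came to pass, 19 no longer passed and 7 turned direction. The turned values were all small. *Pparg* in Oli_ISR-named against IL-4/IL-13 libraries was 0.03 on the log2 scale, -0.0222 with upper-quartile normalization and -0.0009 to 0.0505 when a mouse was left out. *Fabp4* in Oligo-named against Sal003 libraries was -0.02, 0.0040 with upper-quartile normalization and -0.0518 to 0.01 without a mouse. Leaving out a mouse gave -0.1721 to 0.0151 for *Fabp5* with tunicamycin against naive, -0.0157 to 0.2283 for *Lpl* with Sal003 against naive and -0.0224 to 0.0532 for *Plin2* in Oligo-named against Sal003 libraries. With the replicate block by mouse, 6 further differences passed, among them *Cd36* (0.1937) and *Lpl* (-0.2238) in Oli_ISR-named against IL-4/IL-13 libraries, and no call was lost. Counts of the 10 genes changed by more than 1.5 times in 5 of 180 recomputations. The number at 2.5-fold or more with Sal003 was 1 to 2 when a mouse was left out (1 without mouse 5). The number lower in Oli_ISR-named than in IL-4/IL-13 libraries was 4 with upper-quartile normalization, against 2. The number higher in Oligo-named than in Oli_ISR-named libraries was 1 to 2 (1 without mouse 1 or mouse 4), and that at 2.5-fold was 0 with at least 10 counts required in every library, where *Angptl4* was not tested. That filter, by testing fewer genes, also gave 812, 1738, 473, 911, 489 and 115 genes at 2.5-fold or more in the 6 main comparisons, against 1569, 3088, 1055, 1744, 1089 and 358. Of the counts over the related lists, 61 of 900 moved by more than 1.5 times. The other causes were not tested. Depth limits *Angptl4*, *Fabp4* and *Ppargc1b* with tunicamycin, where a library held few reads of each, and *Angptl4* in Oligo-named libraries as well.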
